A study of Vitis vinifera with 12 samples.

Results

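Abscisic acid (ABA) synthesis and breakdown genes were followed in developing grape berries through 8 listed gene models. The list held 3 identifiers of the NCED family (9-cis-epoxycarotenoid dioxygenase) and 5 of the CYP707A family (ABA 8′-hydroxylase). Of these, 7 had a row among the 22580 gene models of the expression table, namely all 3 NCED members and 4 of the 5 CYP707A members. VIT_07s0031g00690 (CYP707A) had no row and was not analysed here. The berries came from Flame Seedless, a red table grape without seeds, labelled as fruit at 40, 50, 60 and 80 days after full bloom, with 3 libraries (a, b and c) at each age. All 12 libraries share this cultivar, and the labels name no treatment. According to the labels, RNA of biological replicates was extracted apart and then pooled, so the p-values below measure the spread between libraries, which may be technical. The table carries no gene names, and 0 of the 8 identifiers matched the RefSeq gene table for assembly ASM3070453v1. The family names are therefore those of the member list. Neither they nor the tissue label were checked against annotated markers, and no sequence is shown.

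ABA is a hormone made from carotenoids. NCED enzymes cleave epoxycarotenoids in the plastid to xanthoxin, the step generally regarded as rate-limiting, and xanthoxin is then turned into ABA in the cytosol. CYP707A enzymes are cytochrome P450 monooxygenases that hydroxylate ABA, after which it isomerises to phaseic acid, a far less active compound. In grape, a non-climacteric fruit, ABA is known to rise around the onset of ripening and to promote skin colouring.

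Transcripts of the main synthesis genes and of the main breakdown gene were most abundant at 40 days and least abundant at 80 days. VIT_19s0093g00550 and VIT_10s0003g03750 (both NCED) were above 1 FPKM (a fragment count corrected for gene length and for the mapped total of the library) in all 12 libraries. Among the CYP707A members, VIT_18s0001g10500 alone reached 1 FPKM, and it did so in the 3 libraries of 40 days only. The other 4 members with a row stayed below 0.2 FPKM throughout. FPKM values are scaled to gene length, so that levels of different members can be set side by side. In bulk libraries such as these, fewer cells expressing a gene and less of its RNA per cell cannot be told apart.

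VIT_19s0093g00550, the NCED member with the highest mean over the 12 libraries (20.3 FPKM), had 61.5, 68.8 and 66.1 FPKM in the 40-day libraries a, b and c. It had 11.7, 3.41 and 6.97 FPKM at 50 days, and 4.70, 7.08 and 8.65 FPKM at 60 days. At 80 days it had 2.05, 1.96 and 1.27 FPKM. The 40-day libraries lay far above all others, the 50-day and 60-day libraries overlapped, and the 80-day libraries lay below all others. The means were 65.5 ± 3.70 FPKM (SD, n = 3) at 40 days, 7.35 ± 4.15 at 50 days, 6.81 ± 1.99 at 60 days, and 1.76 ± 0.426 by 80 days. By mean FPKM the gene model ranked 12369th of 22580 at 80 days and 2227th at 40 days.

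VIT_10s0003g03750, the second NCED member, had 26.9, 41.5 and 32.98 FPKM in the 40-day libraries a, b and c. It had 10.7, 4.20 and 7.63 FPKM at 50 days, and 7.22, 8.24 and 8.30 FPKM at 60 days. At 80 days it had 2.44, 5.38 and 2.73 FPKM. Here too the 40-day libraries stood clear of the rest and the 50-day and 60-day libraries overlapped, while the highest 80-day library (b) lay above the lowest 50-day library (b). The means were 33.8 ± 7.36 FPKM (SD, n = 3) at 40 days, 7.52 ± 3.27 at 50 days, 7.92 ± 0.611 at 60 days, and 3.51 ± 1.62 by 80 days. Its rank was 10942 at 80 days and 4025 at 40 days, a smaller loss than that of VIT_19s0093g00550.

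VIT_18s0001g10500, the CYP707A member with the highest level, had 3.45, 15.3 and 5.39 FPKM in the 40-day libraries a, b and c. It had 0.684, 0.207 and 0.316 FPKM at 50 days. At 60 days library a was listed at 0, with 0.158 and 0.114 FPKM in b and c, and at 80 days library a had 0.0359 FPKM and libraries b and c were listed at 0. Each age lay below the one before it except that the 60-day and 80-day libraries overlapped. The 40-day libraries were uneven, with b at 15.3 FPKM against a median of 5.39.

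**Figure D1:**
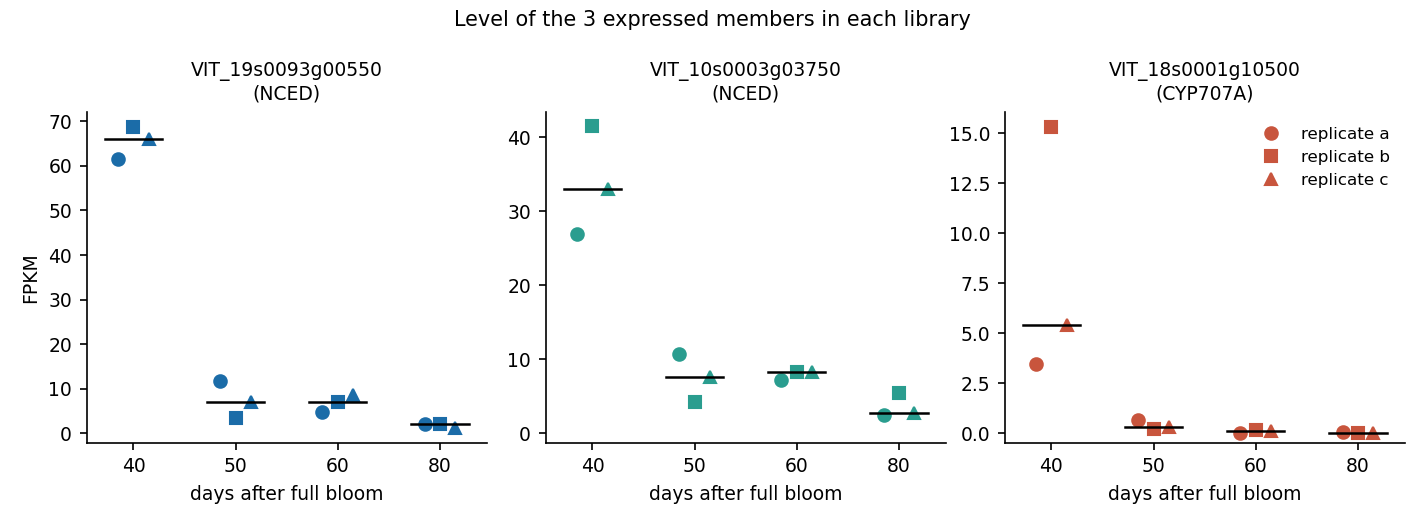
FPKM (vertical axis, linear, a separate scale in each panel) of the 3 expressed members in each library at 40, 50, 60 and 80 days after full bloom, with one symbol per replicate letter and a black line at the median of 3 libraries. All 3 are highest at 40 days; the NCED members overlap between 50 and 60 days and are lower again at 80 days, and VIT_18s0001g10500 is below 1 FPKM from 50 days on.

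In the first interval, 50 against 40 days, all 3 expressed members fell. On the log2(FPKM + 1) scale, which understates changes of low gene models, VIT_19s0093g00550 fell by 3.12 ± 0.319 (SE; limma adjusted p = 0.000122), a mean of 7.35 FPKM at 50 days against 65.5 FPKM at 40 days. VIT_10s0003g03750 fell by 2.08 ± 0.298 (limma adjusted p = 0.000639), with 7.52 FPKM at 50 days against 33.8 FPKM at 40 days. VIT_18s0001g10500 fell by 2.48 ± 0.369 (limma adjusted p = 0.000776), with 0.402 FPKM at 50 days against 8.06 FPKM at 40 days. In all 3 the libraries of both ages did not overlap. A call required a Benjamini-Hochberg adjusted p below 0.05 over the 14579 gene models tested plus a log2 difference of 1 or more. By this rule 5.93% of all tested gene models fell in the interval, and 26% were lower with no overlap between libraries. A fall at least as deep as that of VIT_19s0093g00550 was seen in 0.213% of tested gene models, for VIT_10s0003g03750 in 1.22%, and for VIT_18s0001g10500 in 0.597%. VIT_18s0001g10500 passed the filter for testing (1 FPKM or more in 3 libraries) only through its 40-day libraries, so its fall was in part fixed by the filter and the count of 3 is a description.

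Between 60 and 50 days none of the 3 was called, where 3.68% of all tested gene models were. This count of 0 is from limma, and at an unadjusted p under 0.05 it was 0 as well. VIT_19s0093g00550 differed by -0.0011 on the log2 scale, with a 95% interval of -0.70 to 0.70. VIT_10s0003g03750 differed by 0.14 (-0.52 to 0.80) and VIT_18s0001g10500 by -0.35 (-1.16 to 0.46). With a pseudocount of 0.1 the last value was -1.39 (limma adjusted p = 0.151), again not called. The intervals of both NCED members leave out a change of 1 in either direction. VIT_18s0001g10500 was below 1 FPKM in every 50-day library, and from there no fall on the log2(FPKM + 1) scale can reach 1. A fall of VIT_18s0001g10500 could therefore not be called on this scale, although its interval reaches past a fall of 1. Its 60-day libraries, at up to 0.158 FPKM, lay below its 50-day libraries, at 0.207 FPKM or more, without overlap, as did 18.7% of tested gene models.

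From 60 to 80 days both NCED members were called lower, where 2.08% of tested gene models were. VIT_19s0093g00550 fell by 1.48 ± 0.319 (limma adjusted p = 0.0106), with 1.76 FPKM at 80 days against 6.81 FPKM at 60 days. VIT_10s0003g03750 fell by 1.04 ± 0.298 (limma adjusted p = 0.0329), with 3.51 FPKM at 80 days against 7.92 FPKM at 60 days. In both, the libraries of the ages did not overlap (18.7% of tested gene models were lower without overlap). The call of VIT_10s0003g03750 lay close to the threshold. It was lost with the replicate letter as a block (limma adjusted p = 0.0574) and without 60-day replicate a, b or c or 80-day replicate a or c, with adjusted p from 0.0549 to 0.109 over the 8 alternatives that ended it. VIT_18s0001g10500 differed by -0.11 (95% interval -0.92 to 0.71, limma adjusted p = 0.87). This interval pools the spread of all 4 ages, and the 40-day libraries, not compared here, ran from 3.45 to 15.3 FPKM. It reaches falls for which the 60-day level, at most 0.158 FPKM, leaves no room. Being below 1 FPKM at 60 days, VIT_18s0001g10500 could not be called lower on the log2(FPKM + 1) scale. With a pseudocount of 0.1 it differed by -0.67 (limma adjusted p = 0.472).

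**Figure D2:**
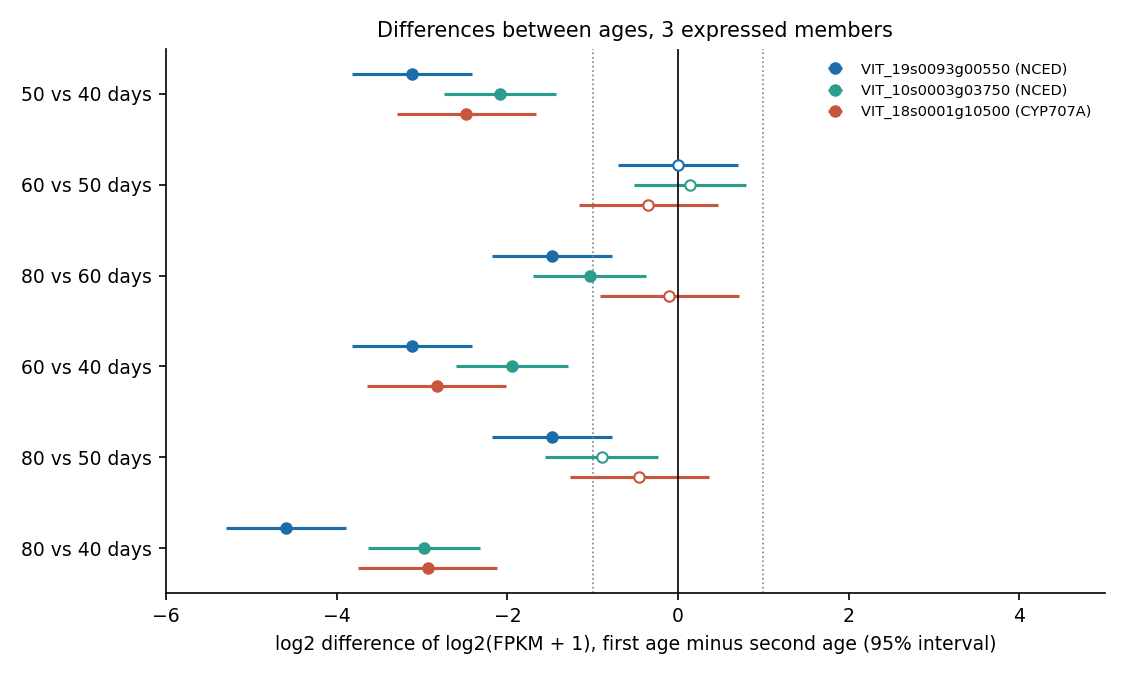
Differences between ages on the log2(FPKM + 1) scale (horizontal axis, first-named age minus second) for the 3 expressed members, with 95% intervals from limma; filled points were called, open points were not, and dotted lines mark a difference of 1. The differences of 50 against 40 days, from -3.12 to -2.08, are followed by values of -0.0011 and 0.14 for the NCED members, and -0.35 for VIT_18s0001g10500, at 60 against 50 days.

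Over the whole period, 80 against 40 days, all 3 expressed members fell. The mean of VIT_19s0093g00550 was 37.2-fold lower at 80 days than at 40 days, and it fell by 4.60 ± 0.319 on the log2 scale (limma adjusted p = 1.44e-06). VIT_10s0003g03750 was 9.61-fold lower and fell by 2.98 ± 0.298 (limma adjusted p = 1.17e-05). VIT_18s0001g10500 fell by 2.94 ± 0.369 (limma adjusted p = 5.32e-05). For it no fold is given, since 2 of 3 libraries were listed at 0 at 80 days, and the log2 value depends on the pseudocount, being -5.92 with a pseudocount of 0.1, against -5.16 for VIT_19s0093g00550, so that the order of the falls depends on it. All 3 were called with no overlap between libraries, VIT_18s0001g10500 having entered the test only through its 40-day libraries, so that its call and the count of 3 are descriptions. Among all tested gene models 14% were called lower, and 33.2% were lower without overlap. The median log2 difference, likewise a description, was -2.98 over the 3 tested members and 0.0024 over all 14579. As deep a fall was found in 0.398% of tested gene models for VIT_19s0093g00550, in 1.77% for VIT_10s0003g03750 and in 1.89% for VIT_18s0001g10500.

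**Figure D3:**
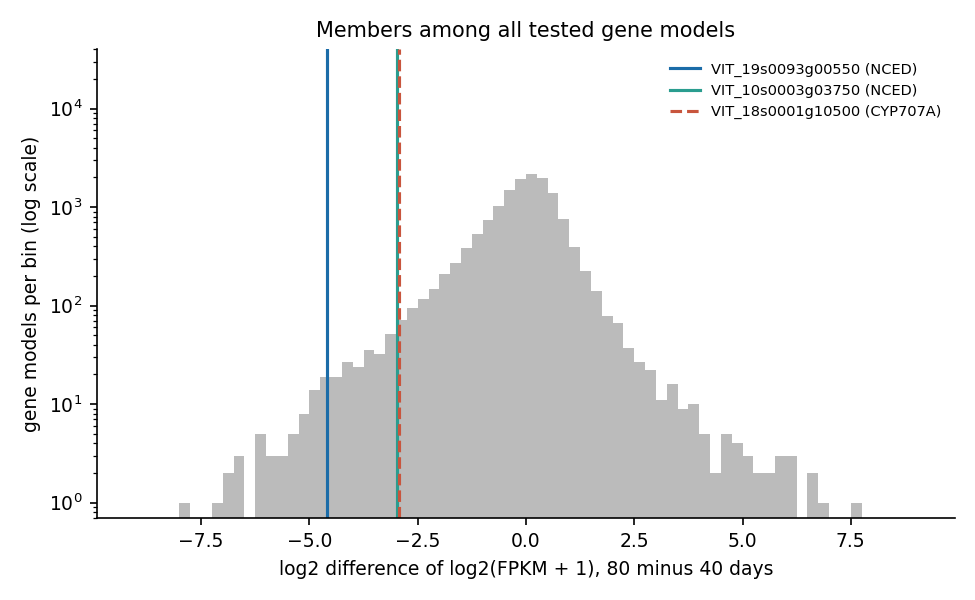
Histogram of the log2(FPKM + 1) differences of 80 minus 40 days over the 14579 tested gene models (vertical axis, log scale, bins of equal width), with vertical lines at the 3 expressed members. VIT_19s0093g00550 lies at -4.60, and the lines of VIT_10s0003g03750 (-2.98) and VIT_18s0001g10500 (-2.94) nearly coincide.

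The comparisons that skip an age share their libraries with those above. At 60 against 40 days all 3 members were called lower, with log2 differences of -3.12, -1.94 and -2.83 for VIT_19s0093g00550, VIT_10s0003g03750 and VIT_18s0001g10500 (limma adjusted p = 3.72e-05, 0.00043 and 0.000156). Of all tested gene models 9.74% were called lower there. For VIT_18s0001g10500 this call was in part fixed by the filter, so the count of 3 is a description. At 80 against 50 days VIT_19s0093g00550 was called lower (-1.48 ± 0.319, limma adjusted p = 0.00413; 5.8% of tested gene models). VIT_10s0003g03750 differed by -0.90 ± 0.298 (limma adjusted p = 0.0337), short of the minimum difference of 1. Without 50-day replicate b (-1.21) or 80-day replicate b (-1.17) it was called. VIT_18s0001g10500 differed by -0.46 ± 0.369 (limma adjusted p = 0.35) and was not called. It was below 1 FPKM at 50 days, so no fall could be called on the log2(FPKM + 1) scale. With a pseudocount of 0.1 it differed by -2.07 and was called (limma adjusted p = 0.0218), and its 80-day libraries, at 0.0359 FPKM or less, lay below its 50-day libraries without overlap (24% of tested gene models).

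By their calls over the 3 intervals, both NCED members fell, had no call between 50 and 60 days and fell again, a course shared by 78 of the 14579 tested gene models (0.535%). For VIT_10s0003g03750 the second fall, and with it this course, is lost under the 8 alternatives above. VIT_18s0001g10500 fell in the first interval with no call afterwards, as did 642 gene models (4.4%). This course is a description: the filter in part fixed the first fall, and the scale allowed no call of a later one. By 50 days VIT_19s0093g00550 had gone through 67.8% of its whole log2 change, VIT_10s0003g03750 through 69.9% and VIT_18s0001g10500 through 84.5%. With a pseudocount of 0.1 the shares were 64.0%, 67.7% and 65.1%, so the higher share of VIT_18s0001g10500 depends on the pseudocount. The limma F test over the 4 ages called all 3, with ranges of the age means of 4.60, 2.98 and 2.94 (limma adjusted p = 9.2e-06, 7.57e-05 and 0.000151), where 24.3% of tested gene models were called. For VIT_18s0001g10500 this call, too, was in part fixed by the filter. No member met the rule for a peak at 50 or 60 days (higher than both 40 and 80 days), which 0.364% of tested gene models met, nor the mirrored rule for a low point (0.494%). When the mean of 50 and 60 days was set against that of 40 and 80 days, VIT_18s0001g10500 was called lower (-1.19 ± 0.261, limma adjusted p = 0.0161; 1.15% of tested gene models). Here again the call was in part fixed by the filter, which VIT_18s0001g10500 passed only through its 40-day libraries. Its 80-day libraries themselves lay no higher than 0.0359 FPKM, and without 40-day replicate b (with a filter of 2 libraries) the difference was -0.92, short of 1. In the same comparison VIT_19s0093g00550 differed by -0.82 (limma adjusted p = 0.0369) and VIT_10s0003g03750 by -0.52 (limma adjusted p = 0.122), and neither was called.

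The make-up of NCED expression changed with age. VIT_19s0093g00550 held 69.5%, 62.3% and 66.7% of the summed NCED FPKM in the 40-day libraries a, b and c. It held 51.8%, 44.8% and 47.8% at 50 days and 39.3%, 46.2% and 51.0% at 60 days. At 80 days its share was 45.7%, 26.6% and 31.6%. VIT_10s0003g03750 was thus the higher of the NCED pair in all 3 libraries at 80 days, and VIT_19s0093g00550 was the higher in all 3 libraries at 40 days. At 50 and 60 days the order differed between libraries. The ratio of VIT_19s0093g00550 to VIT_10s0003g03750 averaged 1.98 ± 0.316 (SD, n = 3) at 40 days, 0.937 ± 0.140 at 50 days, 0.851 ± 0.195 at 60 days, and 0.557 ± 0.250 by 80 days. These ratios are given as a description, with no test.

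Sums were taken over the listed members with a row, so the CYP707A sum leaves out VIT_07s0031g00690. NCED transcripts stood at 99.3 ± 11.0 FPKM (SD, n = 3) at 40 days, 14.9 ± 7.46 at 50 days, 14.7 ± 2.55 at 60 days, and 5.30 ± 1.82 by 80 days. The CYP707A sum was 3.54, 15.5 and 5.46 FPKM in the 40-day libraries a, b and c. From 60 days on it was at most 0.158 FPKM in any library. The NCED sum exceeded the CYP707A sum in all 12 libraries. The log2 ratio of the sums lay between 2.83 and 4.64 at 40 days, between 4.79 and 5.53 at 50 days, between 6.60 and 8.50 at 60 days, and between 5.53 and 5.74 at 80 days. By this ratio alone NCED led by most at 60 days and by least at 40 days, without overlap between those ages. At 60 and 80 days the denominator rests on values near the lowest the table lists, so these ratios, and the order of ages by them, are imprecise. In FPKM the gap was widest at 40 days, with mean sums of 99.3 and 8.17 FPKM, against 14.7 and 0.109 FPKM at 60 days. At 80 days VIT_18s0001g10500 made up 36.9% of the CYP707A sum in library a and 0% in b and c, where VIT_02s0087g00710 held most or all of what was left. At 40 days VIT_18s0001g10500 made up 97.5% to 98.8%, so that the CYP707A sum was nearly its level alone.

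**Figure D4:**
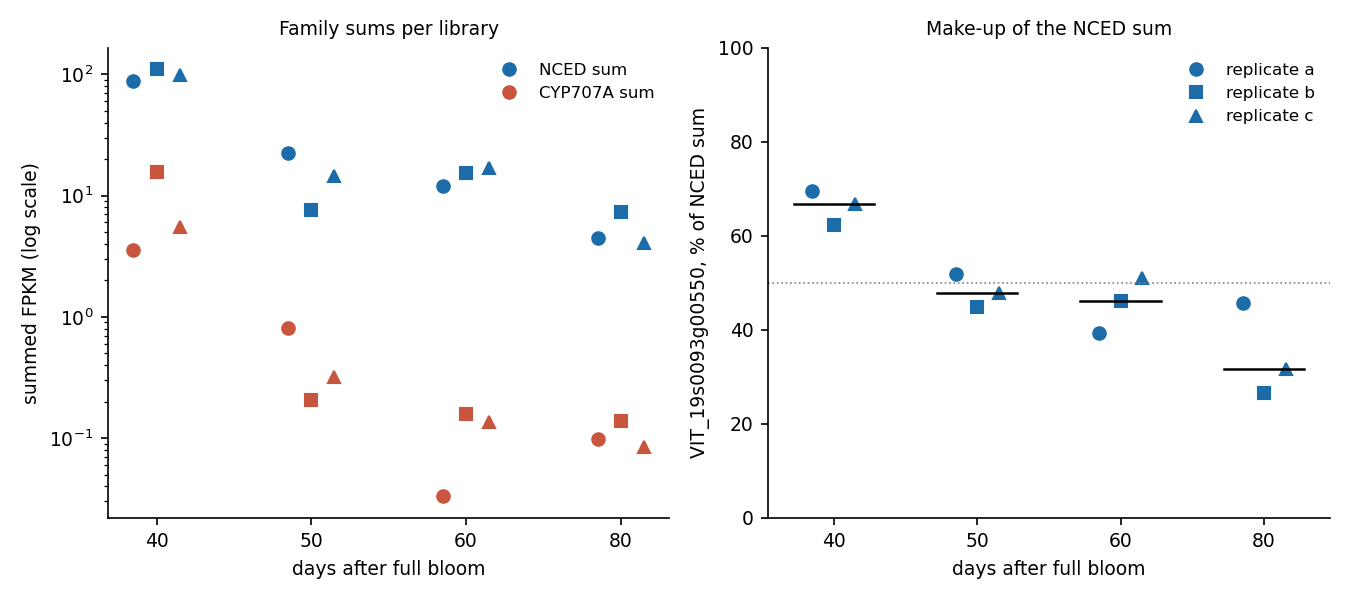
Left, summed FPKM of the NCED and of the CYP707A members with a row in each library (log scale) by days after full bloom. Right, share of the NCED sum held by VIT_19s0093g00550 in each library, with the median as a black line and 50% dotted. Both sums are highest at 40 days, and the share is below 50% in all 80-day libraries and above it in all 40-day libraries.

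The 4 remaining members were near the floor of the table, as were many others. Of all gene models 30.3% never reached 1 FPKM, and 6.20% were listed at 0 in every library. VIT_02s0087g00710 (CYP707A) had 0.0872, 0.186 and 0.0646 FPKM at 40 days in libraries a, b and c. At 50 days it had 0.131 FPKM in a and was listed at 0 in b and c, and at 60 days it had 0.0330 FPKM in a, 0 in b and 0.0225 FPKM in c. At 80 days it had 0.0307, 0.103 and 0.0847 FPKM, so that it was detected in every library of the first and last ages and in 3 of 6 libraries in between. VIT_05s0051g00670 (NCED) was above 0 in 7 libraries, all 3 at 40 days among them, with at most 0.110 FPKM (50 days, a). VIT_06s0004g05050 (CYP707A) was above 0 in 2 libraries only, 80-day a (0.0308 FPKM) and b (0.0355 FPKM). VIT_03s0063g00380 (CYP707A) was listed at 0 in all 12 libraries. None of these 4 was tested, and in a fit without the filter the largest difference among them was -0.13 on the log2 scale (VIT_02s0087g00710, 60 against 40 days, limma adjusted p = 0.121).

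**Figure D5:**
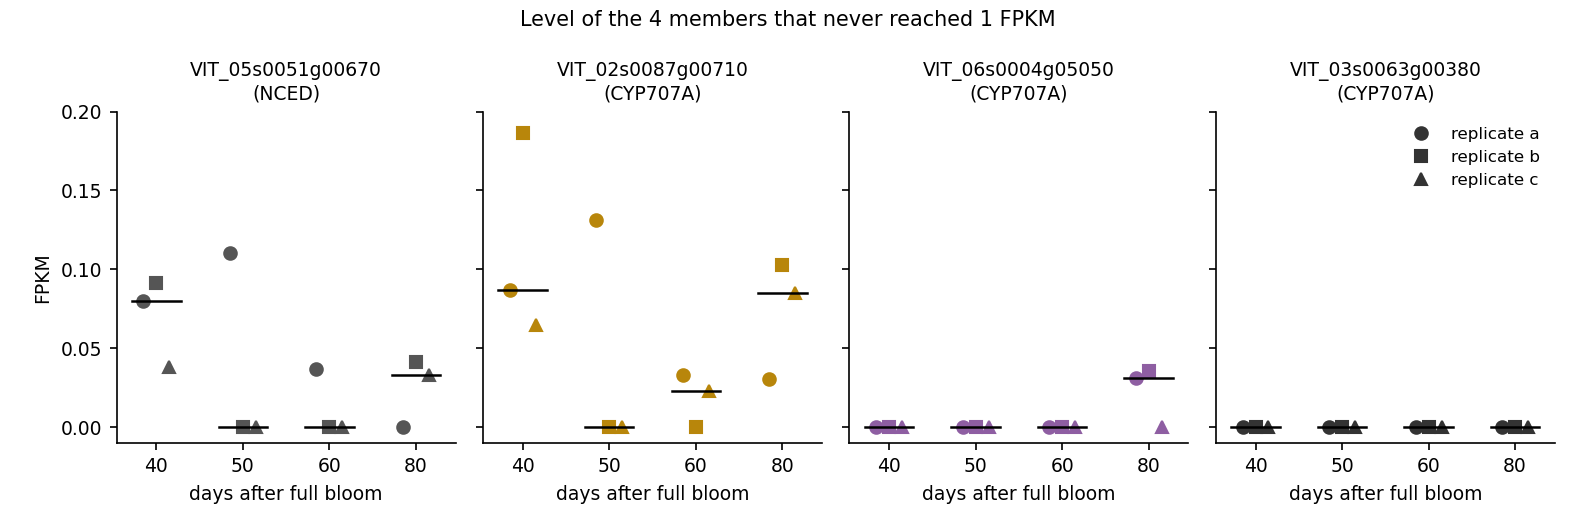
FPKM (shared linear axis) of the 4 members that never reached 1 FPKM, by library and days after full bloom, with one symbol per replicate letter and a black line at the median. Values stay at or below 0.186 FPKM, and VIT_03s0063g00380 is listed at 0 throughout.

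At 40 and 50 days a single library held the highest values of the detected members. At 40 days library b held the highest value of all 5 members detected at that age, although it held the highest value of only 30.7% of all tested gene models. At 50 days library a held the highest value of all 5 detected members, against 28% of tested gene models. In each case 2 of the 5 stayed below 0.2 FPKM. At 60 days the highest values of 5 detected members were split over a (2), b (1) and c (2), and at 80 days those of 6 over a (2), b (4) and c (0). On the first principal component of the other tested gene models, which held 60.0% of the variance and ran from 40 to 80 days, 50-day library a scored -16.1, against -5.04 for b and -13.4 for c. On the same axis 40-day library b scored -72.3, between a (-61.1) and c (-75.9). Whether the place of these libraries has a part in the members' levels was not tested. With the 4 ages pooled, the 3 expressed members varied more between libraries of the same age than most. The residual SD on the log2 scale was 0.446 for VIT_19s0093g00550, 0.415 for VIT_10s0003g03750 and 0.503 for VIT_18s0001g10500, against a median of 0.170 over all tested gene models. The spread differed between ages. VIT_19s0093g00550 ran from 61.5 to 68.8 FPKM at 40 days and from 3.41 to 11.7 FPKM at 50 days.

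The gene models with the most similar courses to the leading NCED and CYP707A members were sought by the root mean square difference of centred log2(FPKM + 1) values over 12 libraries. Nearest to VIT_19s0093g00550 was VIT_18s0001g08870 (0.434 on the log2 scale), with 19.3 ± 4.04 FPKM (SD, n = 3) at 40 days, 1.17 ± 0.283 at 50 days, 1.73 ± 0.674 at 60 days, and 0.141 ± 0.135 by 80 days. Next came VIT_14s0066g00600 (0.440), with 0.910 ± 0.639 FPKM at 80 days and 38.0 ± 9.45 at 40 days. The median distance over all tested gene models was 1.73, and VIT_10s0003g03750, at 0.645, was preceded by 62 gene models. Nearest to VIT_18s0001g10500 were VIT_06s0004g04120 (0.280), with 0.337 ± 0.201 FPKM at 80 days and 9.21 ± 5.45 at 40 days, and VIT_00s0324g00080 (0.288), with 0.426 ± 0.125 FPKM at 80 days and 11.5 ± 3.63 at 40 days. The NCED members lay at 0.531 (VIT_10s0003g03750) and 0.774 (VIT_19s0093g00550) from it, against a median of 1.29. The closest courses belonged to gene models outside the list, whose products the table does not name. With only 3 members among the 14579 tested gene models, this was likely in advance.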

How the data were processed

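Messenger RNA of 12 libraries was sequenced after oligo(dT) capture as strand-specific libraries, per the labels' protocols. The authors deposited one table of FPKM values. Trimmomatic 0.36, FastQC, TopHat2, Cufflinks and edgeR are named in the submitters' processing notes without their roles. Which build, annotation and filters lie behind the table is not given in the sources used here. Each column was matched to its sample by the library code in the labels. Depth is unknown: in 66 pairs of libraries, ratios of values under 0.5 FPKM showed no step of 1 read (the fullest bin of 0.005 log2 units held 0.459% to 2.43% of gene models), so no count test was run. Summed FPKM ranged from 971004 to 1212610 per library, and correlations between libraries of one age were 0.977 to 0.984 across gene models.

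Values were taken as log2(FPKM + 1), and gene models with 1 FPKM or more in 3 or more libraries (14579) were fitted with limma 3.58.1 (R 4.3.3) to one mean per age, with a trended prior variance. Each gene model had a single spread, pooled over the 4 ages, so an SE or interval also reflects ages not compared. The fit was tested on simulated data. Alternatives changed the pseudocount (0.1), the filter (none, or a mean of 5 FPKM or more), the scaling (median ratio, quantile, or without the 10 most abundant gene models) and the call (no minimum difference). Others changed the fit, by blocking on the replicate letter, fitting each pair of ages alone, dropping the variance trend or leaving out each library. All 8 members are named. Of other gene models, the rule names the 2 with the smallest distance in course from the most abundant NCED and CYP707A member. The members and the rules were chosen with earlier results of these data known. No list of further ABA pathway genes or of tissue markers was used, because the identifiers carry no product names.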

Additional observations from a re-analysis of the deposited data

How the results depend on the processing

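The falls at 50, 60 and 80 against 40 days kept their direction and their call in all 3 expressed members under every alternative in which they were tested. For VIT_18s0001g10500 this is a description. In all but the fit with no filter, it was admitted only through its 40-day libraries, which in part fixed its falls. Over the alternatives, the 80 against 40 days difference ranged from -5.16 to -4.44 for VIT_19s0093g00550, from -3.29 to -2.80 for VIT_10s0003g03750 and from -5.92 to -2.40 for VIT_18s0001g10500. VIT_18s0001g10500 was not tested with a mean of 5 FPKM or more, nor without any 1 of the 40-day libraries, since it then fails the filter. With a filter of 2 libraries, chosen after seeing the data, it was called lower at 80 against 40 days without 40-day replicate a (-3.34), b (-2.40) and c (-3.07). Removing the 10 most abundant gene models moved the median difference of all gene models at 80 against 40 days to 0.108 and quantile normalization to 0.115, and neither changed a direction among the called members.

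The number of members called from 60 to 80 days was 1 instead of 2 with no filter, with quantile normalization and with the replicate block, and 1 to 2 over the left-out libraries. The background moved too: with no filter 469 of 21179 gene models were called there, against 525 of 14579. At 80 against 50 days the number of members called was 3 with a pseudocount of 0.1 and 2 with no minimum difference, against 1, and 1 to 2 over the left-out libraries. With a pseudocount of 0.1, 1814 of 14579 gene models were called there, against 1303. For the middle ages against the first and last the number of members called was 0 with a mean of 5 FPKM or more, 2 with no minimum difference, 0 with a filter of 2 libraries and without 40-day replicate b, and 0 to 2 over the left-out libraries, against 1. With a mean of 5 FPKM or more, or a 40-day library left out under the main filter, VIT_18s0001g10500 was not tested. With a mean of 5 FPKM or more, 166 of 10558 gene models were called, against 224 of 14579. The differences of 60 against 50 days changed sign in both NCED members. That of VIT_19s0093g00550 was 0.015 with a pseudocount of 0.1 and 0.0084 with quantile normalization, and ranged from -0.40 to 0.36 over the left-out libraries. That of VIT_10s0003g03750 ranged from -0.18 to 0.41. For VIT_18s0001g10500 it stayed negative in all 20 alternatives, from -1.39 to -0.21. None was called. Beyond the fewer gene models or libraries an alternative holds, the cause was not tested.

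The replicate block changed no other call of a member. The letters did not pair the libraries: deviations from the age means correlated from -0.298 to 0.249 in the 18 pairs with the same letter, 4 of them over 0.1. The unknown depth limits all values below 1 FPKM, where sampling of single fragments and other spread cannot be told apart.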

Other observations

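The 8 listed identifiers lie in 8 different blocks of the VIT_ numbering, so no pair of them is adjacent there. Of the 4 nearest tested gene models around VIT_19s0093g00550 in its block, 1 was called lower at 80 against 40 days and 0 higher. Around VIT_10s0003g03750 it was 0 in either direction, and around VIT_18s0001g10500 it was 1 lower and 1 higher. Among all tested gene models 14% were called lower and 6.95% higher, so these few neighbours are a description.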
